A study of Mus musculus with 12 samples.

Results

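Activated macrophage and phagocyte genes are described here as 10 named genes of newborn mouse brain: Lyz2, Lyz1, Gpnmb, Lgals3, Spp1, Cd68, Mrc1, Cd14, Apoe and Msr1. They were taken by gene symbol from the 23983 entries of each of 2 deposited tables, 1 for cortex and 1 for subcortex. All 10 were found as single entries in both tables. They were chosen by their group values and calls in these same vKO against WT comparisons, so their levels and ratios are a description and carry no test of this choice.

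The tissue came from mice of mixed strain at postnatal day 0. The mutants, called vKO for vascular knockout of the gene Reck, carried the alleles flex2 and Δex1 together with the Tie2Cre transgene, and the mice they were set against were labelled as wild type (WT), with no further allele named. Each genotype was sampled in cortex and in subcortex, with 3 libraries per group and 12 in all. Tie2 drives Cre in endothelial cells and also in blood lineages, which include macrophages, so the knockout may not be limited to vessels. The tables hold 1 FPKM value (fragments per kilobase of transcript and per set number of mapped fragments) for each gene and group, so the spread between libraries and their depth are unknown. A gene is called higher or lower where the q-value in the authors' deposited table is under 0.05. Ratios are log2((vKO FPKM + 1)/(WT FPKM + 1)), so positive ones mean higher in vKO, and those of low genes are understated. In whole tissue, more macrophages and more RNA per macrophage cannot be told apart.

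Macrophages clear dead cells, debris and lipid by binding them with surface receptors, engulfing them and breaking them down in lysosomes. In the brain this work is shared by microglia in the tissue and by macrophages of the meninges and perivascular spaces, and monocytes and neutrophils can enter from blood. Galectin-3, osteopontin and Gpnmb are background markers of a phagocyte that has taken up a load, whereas the mannose receptor Mrc1 marks border macrophages. Lysozyme is made by macrophages and neutrophils and is not a marker of such a load. Apolipoprotein E carries cholesterol and other lipids between brain cells and is made by astrocytes as well as by phagocytes.

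The sequences shown first are those of the neighbouring lysozyme genes Lyz2 and Lyz1, because their values diverged and because their reads could be confused. Lyz2 lies at chr10:117277331-117282321 and Lyz1 at chr10:117287797-117292868, both on the minus strand of mm10 and both with 4 exons. Their transcripts were identical at 1211 of 1262 aligned bases (96.0%), with a longest shared run of 118 bases. Their coding sequences of 444 bases each were identical at 95.0% of positions. The first 60 coding bases, from the GENCODE M21 transcripts, differ at 2 positions, shown in capitals.
Lyz2 coding start: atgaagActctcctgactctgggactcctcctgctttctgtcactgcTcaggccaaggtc
Lyz1 coding start: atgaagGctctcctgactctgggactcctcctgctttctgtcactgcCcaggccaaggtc

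Upstream of the transcription start the pair is less alike. The 250 bases before each start, from RefSeq on GRCm38.p6 (the assembly of mm10), were identical at 204 of 239 aligned bases (85.4%). They lie at chr10:117282273-117282522 for Lyz2 and at chr10:117292869-117293118 for Lyz1. Capitals mark the letters AGGAAGT of the myeloid factor PU.1, here on the opposite strand, at 94 to 100 bases before the start in both.
Lyz2 promoter: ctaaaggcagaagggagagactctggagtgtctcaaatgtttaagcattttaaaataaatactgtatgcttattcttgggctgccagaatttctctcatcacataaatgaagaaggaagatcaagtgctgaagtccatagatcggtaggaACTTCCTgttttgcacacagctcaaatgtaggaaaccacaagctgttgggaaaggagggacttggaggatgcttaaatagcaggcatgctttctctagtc
Lyz1 promoter: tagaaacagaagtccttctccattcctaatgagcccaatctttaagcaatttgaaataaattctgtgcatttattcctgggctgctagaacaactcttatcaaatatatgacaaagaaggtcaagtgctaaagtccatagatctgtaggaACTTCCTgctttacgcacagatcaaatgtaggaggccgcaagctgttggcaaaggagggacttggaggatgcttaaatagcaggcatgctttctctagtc

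Promoter windows of 8 of the 10 genes were searched, 11 windows in all. Msr1 had no matched window, and Cd14, on chromosome 18, was left out of the search. Motifs were searched on both strands, after the lysozyme promoters had been seen. AGGAAGT was found for Lyz2, Lyz1, Mrc1 and Spp1, and 7.69% of all 32851 promoter windows of this length hold it. TGANTCA, the letters of AP-1, was found at 2 places for Cd68, and 6.75% of windows hold it. CATGTG was found at 2 places for Mrc1 (12.3% of windows), and CACGTG was in none of the 11 (6.02% of windows). No matches overlapped, and both genes of the lysozyme pair hold the same PU.1 letters although their values below differ.

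In vKO cortex all 10 genes had higher values than in WT cortex, and 7 of the 8 that the authors tested were called higher. Among all 13594 tested genes, 8.15% were called higher in cortex, 11.3% lower and 19.5% in either direction. Among tested genes with transcripts of 1203 to 1749 bases, the length of most of the set, 17.3% were called higher. Of all tested genes 4.01% were higher at a q-value under 0.01, where 6 of the 7 stayed. With a 1.5-fold minimum 3.35% of all genes were higher, and with adjustment over genes of at least 1 FPKM 8.19% were, and both rules kept 7. The called genes covered the lysozyme Lyz2, the load markers Gpnmb, Lgals3 and Spp1, the lysosomal protein Cd68, the scavenger receptor Msr1 and the lipid carrier Apoe. Their fold differences without a pseudocount ran from 1.60 for Apoe to 15.2 for Lyz2. Mrc1 was tested and not called, and Lyz1 and Cd14 were marked as too low to test.

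**Figure D1:**
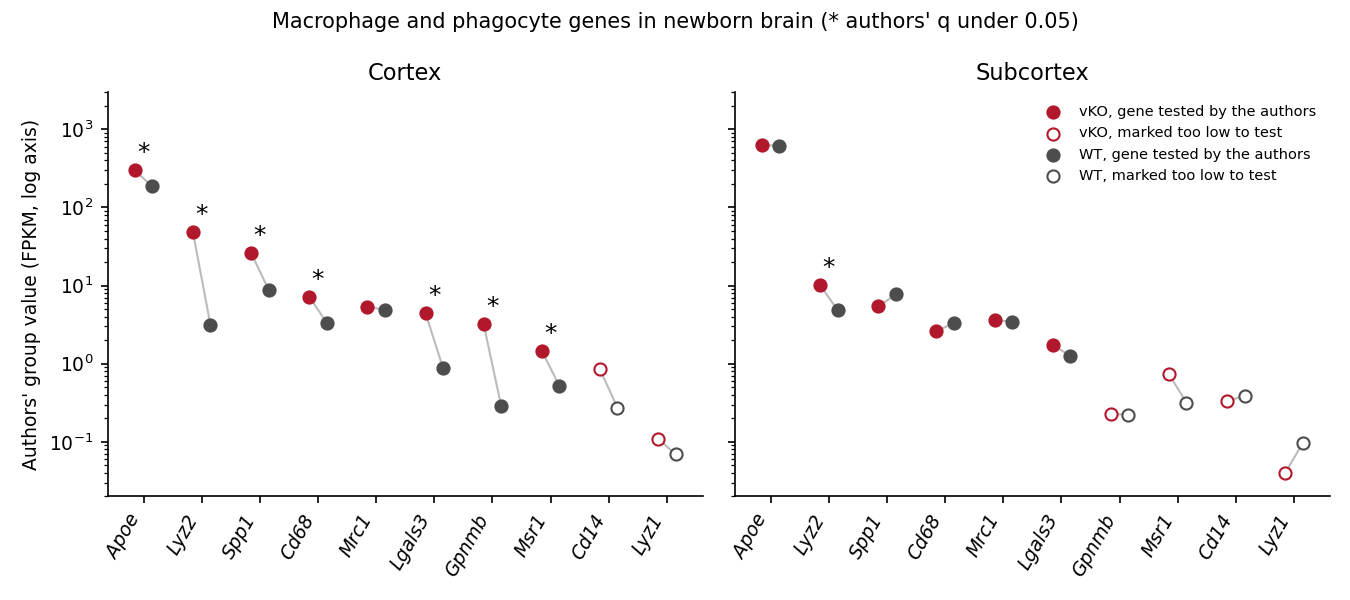
Group values of the 10 genes in FPKM on a log axis, cortex on the left and subcortex on the right, with vKO (red) left of WT (grey) for each gene. Each point is the authors' 1 value per group with no error bar, open points are genes marked as too low to test, and asterisks mark a q-value under 0.05: 7 genes in cortex and Lyz2 alone in subcortex.

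Lyz2 encodes the lysozyme of macrophages and neutrophils, an enzyme that cleaves bacterial cell walls. It stood at 47.9 FPKM in vKO cortex, against 3.14 FPKM in WT cortex. Its ratio of 3.56 was exceeded by 14 of the 13594 tested genes, and its q of 0.000806 was the lowest that the authors' deposited table lists. In subcortex it stood at 10.1 FPKM in vKO and 4.86 FPKM in WT, a 2.08-fold difference with a ratio of 0.92 (authors' deposited table, q = 0.0104). Lyz2 was thus the gene of this set called in both tissues, and the fold in cortex was larger than in subcortex, a difference that could not be tested without values per library.

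Lyz1 encodes the lysozyme of intestinal Paneth cells. It stood at 0.110 FPKM in vKO cortex and 0.0693 FPKM in WT cortex, and at 0.0401 FPKM in vKO and 0.0967 FPKM in WT subcortex. All 4 values lie far under those of Lyz2. Both genes share long identical stretches, as printed above, so reads of one could be placed on the other, and the Lyz1 values are uncertain for that reason.

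Gpnmb encodes a membrane glycoprotein of phagocytes and melanocytes (chr6:49036546-49070929, 11 exons). It stood at 3.19 FPKM in vKO cortex and 0.289 FPKM in WT cortex, an 11.0-fold difference with a ratio of 1.70 (authors' deposited table, q = 0.000806). In subcortex the values were 0.227 FPKM in vKO and 0.222 FPKM in WT, too low for the authors' test. Gpnmb therefore had a low level in 3 of the 4 groups and a higher one in vKO cortex.

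Lgals3 encodes galectin-3, a lectin that binds galactose-containing sugars and gathers on damaged lysosomes (chr14:47367751-47386160, 6 exons). It stood at 4.43 FPKM in vKO cortex and 0.885 FPKM in WT cortex, a 5.01-fold difference with a ratio of 1.53. In subcortex it stood at 1.76 FPKM in vKO and 1.25 FPKM in WT (authors' deposited table, q = 0.999). Like Gpnmb, it was called higher in cortex, and it was not called in subcortex.

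Spp1 encodes osteopontin, a secreted matrix protein that binds integrins and CD44 (chr5:104435118-104441050, 6 exons). It stood at 26.1 FPKM in vKO cortex and 8.88 FPKM in WT cortex, a 2.94-fold difference with a ratio of 1.46. In subcortex the order was the other way, with 5.40 FPKM in vKO and 7.70 FPKM in WT. That subcortical ratio of -0.44 was not called (authors' deposited table, q = 0.550).

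Cd68 encodes a glycoprotein of lysosome and endosome membranes and is the usual histological marker of phagocytes (chr11:69664213-69666153, 6 exons). It stood at 7.20 FPKM in vKO cortex and 3.34 FPKM in WT cortex, a 2.15-fold difference with a ratio of 0.92 (authors' deposited table, q = 0.00906). In subcortex it stood at 2.59 FPKM in vKO and 3.33 FPKM in WT, which was not called (authors' deposited table, q = 0.999). The WT levels of both tissues were close, at 3.34 and 3.33 FPKM, though the tables were normalized separately.

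Msr1 encodes the class A scavenger receptor, which takes up modified lipoproteins (chr8:39581685-39642673, 9 exons). It stood at 1.45 FPKM in vKO cortex and 0.524 FPKM in WT cortex, a 2.76-fold difference with a ratio of 0.68 (authors' deposited table, q = 0.0107). In subcortex it stood at 0.732 FPKM in vKO and 0.319 FPKM in WT, marked as too low to test. Its fold was over 2 in both tissues at levels near or under 1 FPKM.

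Cd14 encodes the co-receptor that hands bacterial lipopolysaccharide to TLR4, and it lies on chromosome 18 from 36725067 to 36726798 with 2 exons. It stood at 0.846 FPKM in vKO cortex and 0.274 FPKM in WT cortex, and at 0.332 FPKM in vKO and 0.389 FPKM in WT subcortex. Neither pair was tested by the authors. The value in vKO cortex was the highest of the 4.

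Mrc1 encodes the mannose receptor CD206, an endocytic lectin and marker of border macrophages (chr2:14229392-14332057, 30 exons). It stood at 5.39 FPKM in vKO cortex and 4.87 FPKM in WT cortex, with a ratio of 0.12 (authors' deposited table, q = 0.593). In subcortex it stood at 3.61 FPKM in vKO and 3.46 FPKM in WT (authors' deposited table, q = 0.999). The sign of its cortex ratio depended on scaling, at -0.07 after the FPKM of each group had been rescaled to one common sum. By that rescaling the median of all tested genes in cortex was itself -0.20, against 0.00 as deposited, so Mrc1 stood above the median of all genes by both.

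Apoe (chr7:19696109-19699188, 4 exons) had by far the highest level of the set in each group. It stood at 297 FPKM in vKO cortex and 186 FPKM in WT cortex, a 1.60-fold difference with a ratio of 0.68 (authors' deposited table, q = 0.000806). In subcortex it stood at 627 FPKM in vKO and 618 FPKM in WT, a ratio of 0.02 (authors' deposited table, q = 0.999). Both subcortical values lay above both cortical ones. The summed FPKM of the other 9 genes was 96.6 in vKO cortex and 22.3 in WT cortex, and 24.8 in vKO and 21.6 in WT subcortex.

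**Figure D2:**
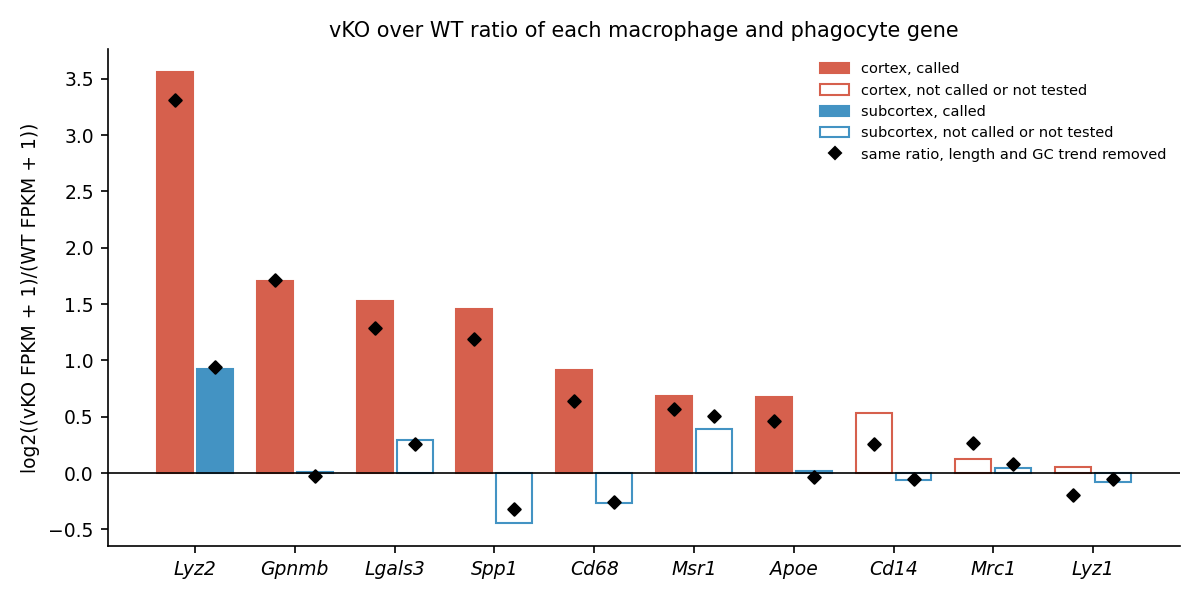
Ratios log2((vKO FPKM + 1)/(WT FPKM + 1)) of the 10 genes, ordered by cortex, with cortex bars (red) left of subcortex bars (blue). Filled bars have a q-value under 0.05 in the authors' table, and diamonds give the same ratio after the trend with transcript length and GC content was removed, which left Lyz2 at 3.31 and Gpnmb at 1.71 in cortex.

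In subcortex 6 of the 10 genes had higher and 4 lower values in vKO than in WT, and 1 of the 6 tested, Lyz2, was called higher. Among all 13735 tested genes, 0.451% were called higher in subcortex, 0.262% lower and 0.714% in either direction. Lyz2 was also called with a 1.5-fold minimum (0.408% of all genes higher) and with adjustment over genes of at least 1 FPKM (0.453%), and was not at a q-value under 0.01. The median ratio over the tested genes of the set was 1.19 in cortex and 0.03 in subcortex. Over all tested genes it was 0.00 in cortex and -0.00 in subcortex. The 6 genes tested in both tissues and the 4 others all had larger ratios in cortex than in subcortex. The gap in log2 ratio ran from 0.07 for Mrc1 to 2.64 for Lyz2. With 1 value per group, the interaction of tissue and genotype could not be tested.

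**Figure D3:**
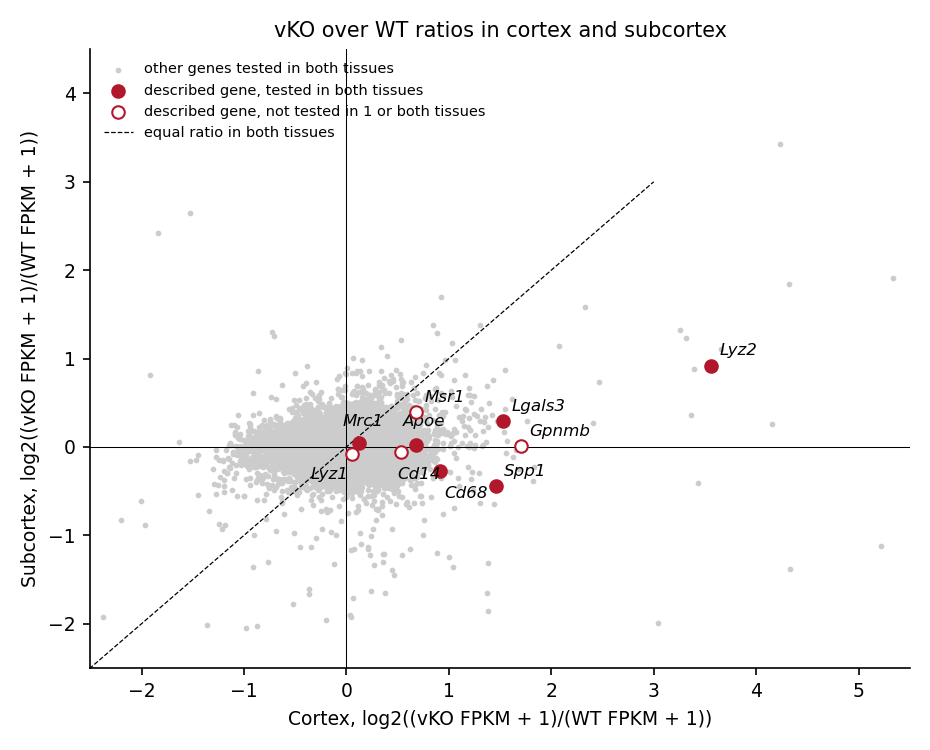
Each point is a gene tested in both tissues, with the cortex ratio on the x axis and the subcortex ratio on the y axis, both as log2((vKO FPKM + 1)/(WT FPKM + 1)). The 10 genes (red, open where not tested in 1 or both tissues) lie below the dashed line of equal ratios, and 22 of 13169 genes fall outside the axes.

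The level of these genes in the 2 tissues of WT mice was not uniform, though values from the separately normalized tables can be set side by side only with care. In WT mice the subcortical value over the cortical one was 3.33 for Apoe, 1.55 for Lyz2 and 1.41 for Lgals3. It was 0.711 for Mrc1, 0.868 for Spp1 and 0.996 for Cd68. In vKO mice the cortical value over the subcortical one was 14.0 for Gpnmb, 4.83 for Spp1, 4.75 for Lyz2, 2.78 for Cd68 and 2.52 for Lgals3. Ranked by FPKM, vKO cortex had Apoe, Lyz2, Spp1, Cd68, Mrc1, Lgals3, Gpnmb, Msr1, Cd14 and Lyz1. In WT cortex Spp1 and Mrc1 stood above Cd68 and Lyz2, at 8.88, 4.87, 3.34 and 3.14 FPKM, and neighbours in these orders could not be separated, since no spread is known.

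The set was placed beside markers of the cells that could express these genes. These lists were chosen with earlier results of these data known, so they are no independent check of the label. Genes shared by all myeloid cells were higher in vKO cortex: of 9 tested, 6 rose and 0 fell, against 8.15% called higher among all tested genes, with a median ratio of 0.72. Tyrobp, an adaptor of myeloid receptors, stood at 27.5 FPKM in vKO and 8.59 FPKM in WT cortex. Fcgr3, an antibody receptor, stood at 9.23 FPKM in vKO and 3.06 FPKM in WT cortex, and Cyba, a subunit of the phagocyte oxidase, at 11.7 and 4.55 FPKM in vKO and WT cortex. For all 3 the authors' deposited table gave q = 0.000806. With the trend of transcript length and GC content removed, Tyrobp had a ratio of 1.15 in place of 1.57. Fcgr3 had 1.09 in place of 1.33, Cyba 0.82 in place of 1.19, and the list's median was 0.65. The lineage factor Spi1, which encodes PU.1, stood at 1.88 FPKM in vKO and 0.959 FPKM in WT cortex and was not called (authors' deposited table, q = 0.0580). The authors' deposited table (Cuffdiff) called 0 of 9 tested shared myeloid genes in subcortex, where 1 had an unadjusted p under 0.05 and the median ratio was 0.07.

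Of 11 tested homeostatic microglial genes 3 were called higher and 1 lower in cortex, against 8.15% higher and 11.3% lower among all tested genes. Their median ratio was 0.21, and 0.0466 after rescaling to one common sum. Aif1, which encodes IBA1, rose to 3.12 FPKM in vKO, against 1.05 FPKM in WT cortex. The fractalkine receptor Cx3cr1 rose to 4.82 FPKM in vKO, against 2.73 FPKM in WT, while the transcription factor Sall1 fell to 3.28 FPKM in vKO, against 5.06 FPKM in WT. The ratio of Sall1 was -0.50, and -0.26 with the trend of ratio with transcript length and GC content removed. By the same removal Aif1 had 0.65 in place of 1.01, and Cx3cr1 had 0.75 in place of 0.64. The markers P2ry12 (2.06 FPKM in vKO and 2.41 FPKM in WT) and Tmem119 (1.52 and 1.25 FPKM in vKO and WT) were not called in cortex. Of 11 tested genes of activated microglia 2 rose and 0 fell, against 8.15% higher and 11.3% lower among all tested genes. Their median ratio was 0.31, and 0.10 after rescaling to one common sum. The 2 were Trem2, a lipid receptor, at 5.29 FPKM in vKO and 1.85 FPKM in WT, and the ferritin chain Fth1, at 355 FPKM in vKO and 247 FPKM in WT cortex. Net of the length and GC trend Trem2 had a ratio of 0.77 in place of 1.14, and Fth1 had 0.25 in place of 0.52. Itgax (0.0954 FPKM in vKO and 0.0625 FPKM in WT) and Cst7 (0.394 and 0.939 FPKM in vKO and WT) were too low to test in cortex. Of the 11 tested genes of activated microglia 10 had ratios above 0, and Cst7 was the only untested gene of that list with a lower value in vKO cortex.

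Border macrophage genes, the list closest to Mrc1, had 4 of 9 tested members higher and 1 lower in cortex, against 8.15% and 11.3% of all tested genes, with a median ratio of 0.33. The 4 became 1 at a q-value under 0.01 and 2 with the 1.5-fold minimum. Pf4, a chemokine of these macrophages and of platelets, rose to 18.1 FPKM in vKO, against 7.04 FPKM in WT cortex. The haemoglobin scavenger receptor Cd163 rose in both tissues, to 1.37 FPKM in vKO against 0.778 FPKM in WT cortex, and to 1.15 FPKM in vKO against 0.404 FPKM in WT subcortex. The transcription factor Maf fell to 5.79 FPKM in vKO, against 9.55 FPKM in WT cortex, a ratio of -0.64 that was -0.42 with the length and GC trend removed. Lyve1 stood beside Mrc1 as not called, at 2.40 FPKM in vKO and 2.17 FPKM in WT cortex.

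Few markers of blood cells could be tested, and among all tested genes 8.15% were called higher in cortex. Of 12 neutrophil genes 3 were tested and 1 rose: S100a9 stood at 17.2 FPKM in vKO and 0.908 FPKM in WT cortex. Its partner S100a8 stood at 18.4 FPKM in vKO and 0.941 FPKM in WT (authors' deposited table, q = 0.143). The summed FPKM of the neutrophil list was 39.9 in vKO and 2.56 in WT cortex, and 9.08 in vKO and 2.58 in WT subcortex. The granule gene Elane was listed at 0 in all 4 groups, and Mpo stood at 0.0432 in vKO and 0.0388 in WT cortex. Every other gene of the list had a higher value in vKO than in WT cortex, most of them too low to test. Of 11 monocyte genes 1 was tested, Ms4a6c, which rose to 4.37 FPKM in vKO against 0.847 FPKM in WT cortex. The list summed to 8.15 FPKM in vKO and 2.15 FPKM in WT cortex, and to 2.99 FPKM in vKO and 2.26 FPKM in WT subcortex. Its defining receptor Ccr2 stood at 0.255 FPKM in vKO and 0.0558 FPKM in WT cortex, and Ly6c2 and Ms4a4c were listed at 0 in WT cortex.

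Of 8 erythroid genes found, 3 were tested in cortex and 1 rose: Alas2, the erythroid enzyme of haem synthesis, at 34.6 FPKM in vKO and 5.70 FPKM in WT. That list summed to 1262 FPKM in vKO and 76.6 FPKM in WT cortex, and to 150 FPKM in vKO and 122 FPKM in WT subcortex. Nearly all of it came from the near-identical copies Hba-a1 and Hba-a2, and Hba-a1 was read from a joint entry that names other symbols too. In subcortex these 2 entries went opposite ways. Hba-a1 stood at 74.5 FPKM in vKO and 98.9 FPKM in WT, and Hba-a2 at 68.2 FPKM in vKO and 17.5 FPKM in WT. The erythroid factor gene Klf1 stood at 0.255 FPKM in vKO and 0.254 FPKM in WT cortex. Neither Hba-a1 nor Hba-a2 was called in cortex (authors' deposited table, q = 0.110 and 0.643). S100a8 and S100a9 made up most of the neutrophil sum in cortex, and Ms4a6c was the largest part of the monocyte sum. The 3 called genes S100a9, Ms4a6c and Alas2 and the 3 list sums were higher in vKO cortex, as Lyz2 was, and their part in the values of the 10 genes was not tested. Net of the length and GC trend the cortex ratio of S100a9 was 2.94 in place of 3.25. That of Ms4a6c was 1.34 in place of 1.54, and that of Alas2 2.23 in place of 2.41.

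**Figure D4:**
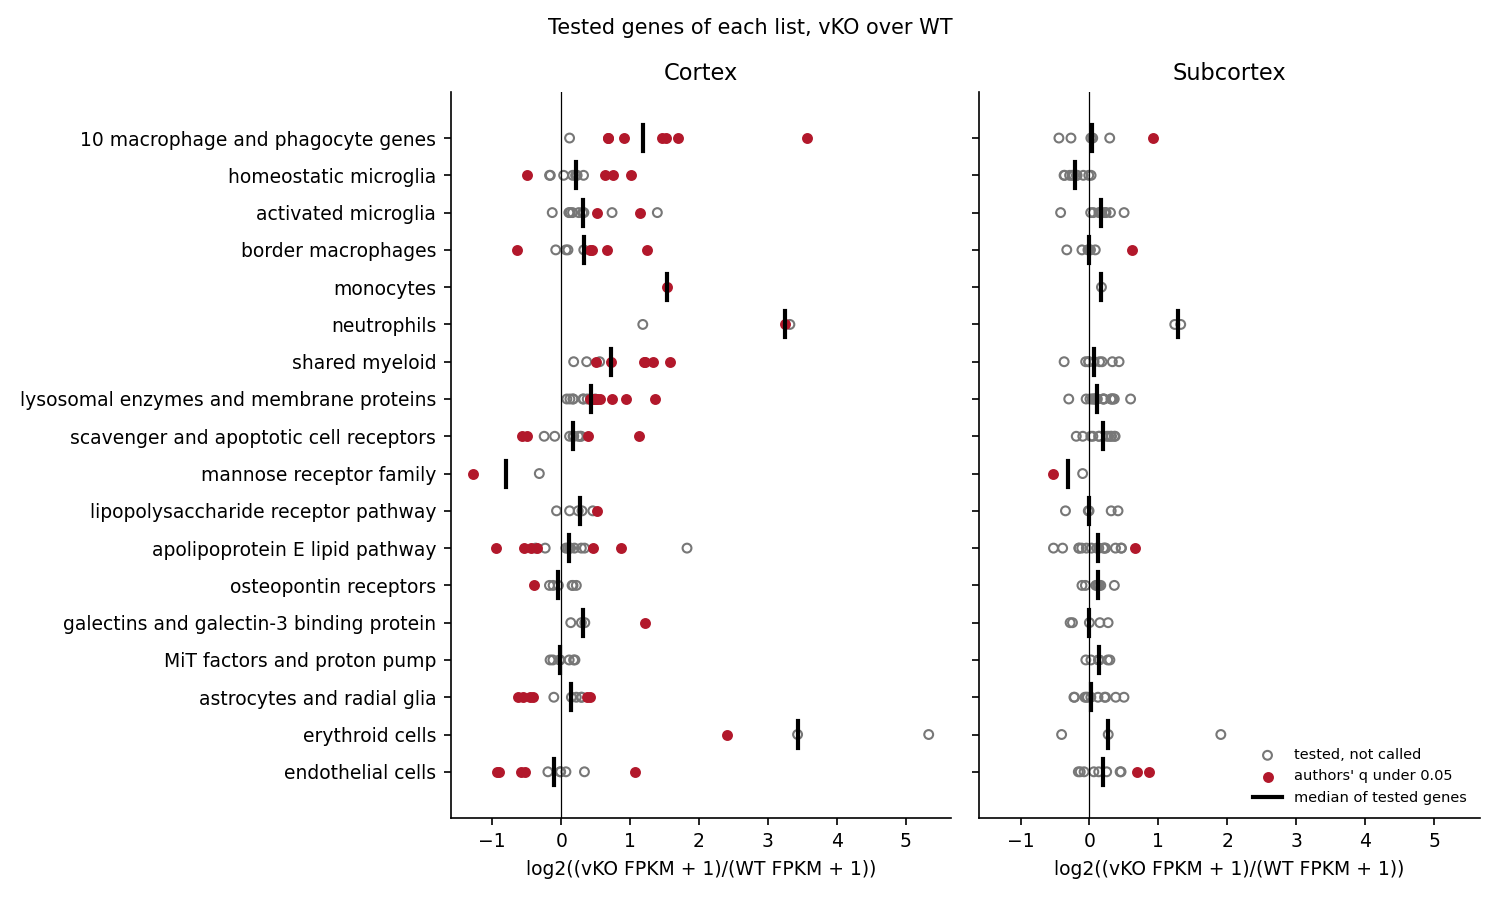
Every tested gene of the 10-gene set and of 17 lists, placed by its ratio log2((vKO FPKM + 1)/(WT FPKM + 1)) in cortex (left) and subcortex (right). Red points have a q-value under 0.05 in the authors' table and black bars are medians, which were 1.19 for the set, 0.72 for shared myeloid genes and 0.43 for lysosomal genes in cortex.

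The pathways these genes serve were then followed by list, with the members themselves left out. Lysosomal enzymes and membrane proteins, which do the digestion that Cd68 marks, rose in cortex in 10 of 19 tested cases and fell in 0, against 8.15% called higher among all genes, with a median ratio of 0.43. The 10 became 5 at a q-value under 0.01 and 3 with the 1.5-fold minimum, and the median was 0.24 after rescaling to one common sum. All 19 had ratios above 0 as deposited. The cathepsin genes Ctss and Ctsd had the lowest q-value in the authors' deposited table: Ctss stood at 13.3 FPKM in vKO and 4.55 FPKM in WT cortex, and Ctsd at 139 FPKM in vKO and 71.6 FPKM in WT cortex. The protease Lgmn rose to 41.1 FPKM in vKO, against 27.4 FPKM in WT, and the cholesterol carrier Npc2 rose to 29.3 FPKM in vKO, against 20.1 FPKM in WT. In subcortex 17 of these 19 had ratios above 0, and the median was 0.11. The authors' deposited table (Cuffdiff) called 0 of them there, and 5 had an unadjusted p under 0.05.

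Of 12 tested receptor and uptake genes for debris and dead cells other than Msr1, 2 were called higher and 2 lower in cortex, near the 8.15% and 11.3% of all tested genes. Cd36, a receptor of oxidized lipoproteins and fatty acids, rose to 1.997 FPKM in vKO, against 0.368 FPKM in WT cortex, and the scavenger lectin Colec12 to 11.2 FPKM in vKO, against 8.36 FPKM in WT. Elmo1, which links such receptors to the cytoskeleton, fell to 6.88 FPKM in vKO, against 10.7 FPKM in WT (ratio -0.57, and -0.35 net of the length and GC trend), and the phosphatidylserine receptor gene Adgrb1 to 15.8 FPKM in vKO, against 22.7 FPKM in WT. Net of that trend Cd36 had a ratio of 1.01 in place of 1.13, and Colec12 had 0.63 in place of 0.38. The list's median was 0.18, and -0.01 after rescaling to one common sum. Among the 2 tested relatives of Mrc1, Ly75 was the 1 called, lower in both tissues. Among all tested genes 11.3% were called lower in cortex and 0.262% in subcortex. It stood at 0.196 FPKM in vKO and 1.89 FPKM in WT cortex, and at 0.605 FPKM in vKO and 1.32 FPKM in WT subcortex.

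Around Cd14, the lipopolysaccharide receptor gene Tlr4 rose to 1.28 FPKM in vKO, against 0.588 FPKM in WT cortex, and was the 1 called of 6 tested in its list. The Tlr4 ratio of 0.52 was 0.44 net of the length and GC trend. Among all tested genes 8.15% were called higher and 11.3% lower in cortex, and the small counts of this paragraph stand beside those shares. The cytokine genes at the end of that pathway were too low to test. Tnf stood at 0.131 FPKM in vKO and 0.0249 FPKM in WT cortex, and Il1b at 0.142 FPKM in vKO and 0.0522 FPKM in WT cortex. The next list held galectin genes other than Lgals3 and the gene of the galectin-3 binding protein, Lgals3bp. Of its 4 tested genes Lgals1 rose, to 41.4 FPKM in vKO against 17.2 FPKM in WT cortex. The Lgals1 ratio of 1.22 was 0.80 net of the length and GC trend. In subcortex 0 of 5 were called by the authors' deposited table (Cuffdiff), and 0 had an unadjusted p under 0.05. Of the 7 tested osteopontin receptor genes 0 were called higher in cortex and 1 fell, the integrin gene Itga4, to 1.24 FPKM in vKO against 1.95 FPKM in WT. Its ratio of -0.40 was -0.16 with the length and GC trend removed. Cd44 stood at 1.29 FPKM in vKO and 0.963 FPKM in WT cortex and was not called.

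Of 16 tested genes of apolipoprotein E lipid traffic 2 were called higher and 4 lower in cortex, against 8.15% and 11.3% of all tested genes, with a median ratio of 0.11 (-0.09 after rescaling to one common sum). Apod, another lipid carrier, rose in both tissues, to 31.6 FPKM in vKO against 16.9 FPKM in WT cortex, and to 34.9 FPKM in vKO against 21.8 FPKM in WT subcortex. It was the 1 called of 16 tested in subcortex, where 0.451% of all tested genes were called higher. Its cortex ratio of 0.87 was 0.67 net of the length and GC trend. The Apoe receptors Lrp1 and Lrp8 fell in cortex, to 27.3 FPKM in vKO against 53.4 FPKM in WT, and to 26.5 FPKM in vKO against 39.1 FPKM in WT. Net of the length and GC trend the ratio of Lrp1 was -0.39 in place of -0.94, and that of Lrp8 -0.32 in place of -0.54. For the other two called lower, Vldlr had -0.07 in place of -0.36 and Sorl1 had 0.01 in place of -0.44. Apoc1, the neighbour of Apoe on chromosome 7, stood at 3.70 FPKM in vKO and 0.327 FPKM in WT cortex (authors' deposited table, q = 0.432). Astrocyte and radial glia genes, the other source of Apoe, had 2 of 11 tested higher and 4 lower in cortex, against 8.15% and 11.3% of all tested genes, with a median ratio of 0.15 (-0.07 after rescaling to one common sum). Aldoc stood at 73.8 FPKM in vKO and 56.7 FPKM in WT, and Aqp4 at 4.20 FPKM in vKO and 6.16 FPKM in WT cortex. None of the 7 tested MiT factor and proton pump genes, which drive lysosome formation and acidification, was called in either tissue by the authors' deposited tables (Cuffdiff), 0 had an unadjusted p under 0.05, and Mitf stood at 0.925 FPKM in vKO and 0.954 FPKM in WT cortex. Markers of endothelial cells, in which Tie2 drives Cre, had 1 of 10 tested called higher and 4 lower in cortex, against 8.15% and 11.3% of all tested genes. In subcortex 2 of 10 were higher and 0 lower, against 0.451% and 0.262%. Of those called lower in cortex, Flt1 had a ratio of -0.58, and -0.12 net of the length and GC trend. Net of that trend Kdr had -0.69 in place of -0.93, Cldn5 had -1.07 in place of -0.90, and Esam had -0.70 in place of -0.52. The 1 called higher in cortex, Emcn, had 0.94 in place of 1.07.

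Transcript length moved with genotype in cortex, where ratios fell as transcripts grew longer. Across 12945 tested genes with a known length the Spearman correlation was -0.551 in cortex and, across 13078, 0.02 in subcortex, given as descriptions across genes, which share their libraries. In the shortest decile of cortex transcripts 28.4% were called higher and 0.463% lower, and in the longest 0.541% higher and 46.7% lower. None of the set lies in these deciles. In the decile of 1203 to 1749 bases, which holds most of the set, 17.3% were called higher and 1.39% lower. In that of 3181 to 3714 bases, which holds Msr1 and Gpnmb, 3.64% were called higher and 7.20% lower. Most of the set is short, from 1230 bases for Cd68 to 1641 for Cd14, with Msr1 at 3636, Gpnmb at 3701 and Mrc1 at 5374 bases. After subtraction of the median ratio of genes of like length and GC content, the cortex ratios were 3.31 for Lyz2, 1.71 for Gpnmb, 1.29 for Lgals3, 1.19 for Spp1, 0.64 for Cd68, 0.57 for Msr1 and 0.46 for Apoe. Those of Mrc1 and Cd14 were 0.26 each, and that of Lyz1 turned to -0.19. The 7 called genes had been picked as higher, with ratios from 0.68 up, and the medians subtracted from them were at most 0.28. That they stayed above 0 was therefore fixed beforehand and tests nothing.

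**Figure D5:**
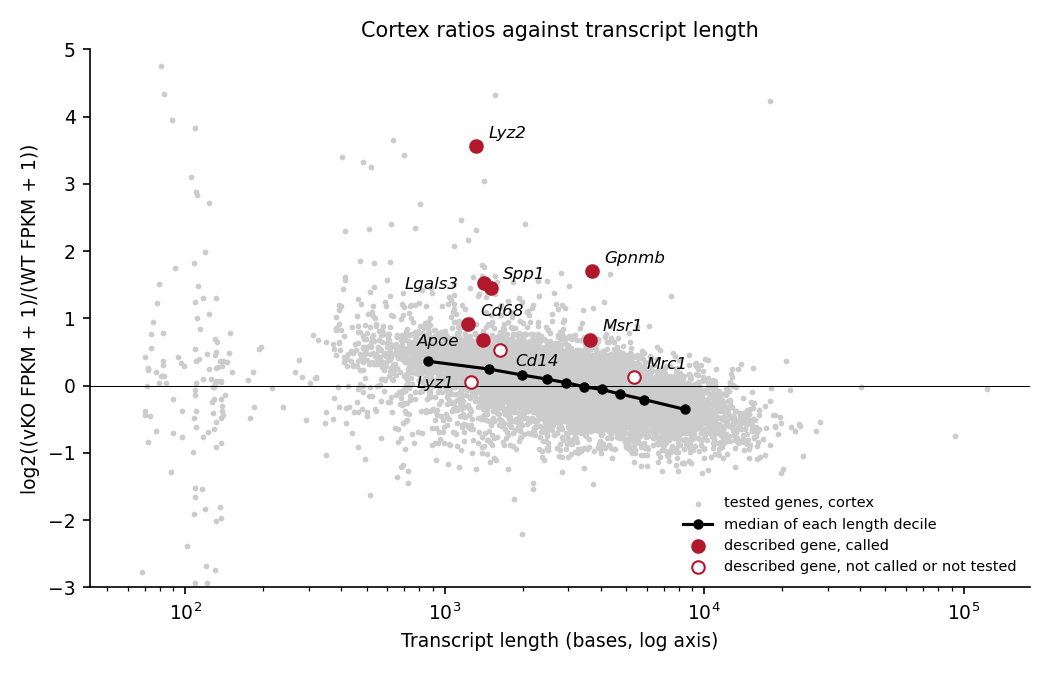
Cortex ratios log2((vKO FPKM + 1)/(WT FPKM + 1)) of tested genes against transcript length in bases on a log axis (longest transcript, protein-coding where one exists), with the median of each length decile in black. The 7 called genes (filled red), which were picked as higher, lie above the black line, and 33 of 12945 genes fall outside the y axis.

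Sex markers differed as well, and the labels give no sex. Xist, expressed from the inactive X of female cells, stood at 18.6 FPKM in vKO and 0.0417 FPKM in WT cortex, and at 10.2 FPKM in vKO and 0.0369 FPKM in WT subcortex. Y-linked genes were present in both genotypes, Ddx3y at 13.1 FPKM in vKO and 16.8 FPKM in WT cortex and Eif2s3y at 15.8 FPKM in vKO and 30.4 FPKM in WT cortex. By these markers both groups held male tissue and the vKO group female tissue too, and this difference in makeup cannot be told apart from genotype here. The targeted gene Reck stood at 3.23 FPKM in vKO and 2.91 FPKM in WT cortex, and at 3.49 FPKM in vKO and 2.37 FPKM in WT subcortex, called in neither table. These whole-gene values of whole tissue do not check a deletion in a part of the cells.

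The genes whose pair of ratios in cortex and subcortex lay nearest to that of Lyz2 were the joint histone entry of Hist1h4m and Hist1h4n, Hbb-y, S100a8, S100a9 and Hbb-b2, out of 12393 genes tested in both tissues at 1 FPKM or more. Their Euclidean distances from Lyz2 ran from 0.17 to 0.60 on the log2 scale. S100a9 had ratios of 3.25 in cortex and 1.32 in subcortex, beside 3.56 and 0.92 for Lyz2. Hbb-y, an embryonic globin, stood at 12.4 FPKM in vKO and 0.0607 FPKM in WT cortex, and S100a9 and Hbb-b2 were the 2 of these 5 called in cortex. None of the 5 was called in subcortex, where Lyz2 was, and S100a9 had q = 0.999 there (authors' deposited table). This likeness rests on 2 ratios per gene. S100a8 and S100a9 encode calcium-binding proteins of neutrophils, and Hbb-y and Hbb-b2 encode globins of red cells.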

How the data were processed

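RNA from 12 libraries of newborn mouse cortex and subcortex, 3 per genotype and tissue, was sequenced. Per the submitters' processing notes, the tools named were HISAT2 2.0.1, Cufflinks 2.2.1 and Cuffdiff, on mm10. Per the file headers, each of the 2 deposited tables holds 1 FPKM value per group, a test score, and a p-value and q-value by the authors for each of 23983 entries. The columns marked M and W were read as vKO and WT. Depth per library and the spread between libraries are unknown, so no test was computed here, and the labels do not say whether the libraries of a group came from separate animals, so the authors' p-values may measure technical spread only.

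Ratios were log2((vKO FPKM + 1)/(WT FPKM + 1)). A call is a q-value under 0.05 in the authors' deposited table, which matched a Benjamini-Hochberg adjustment of its p-values. The 10 genes and the 18 lists of 209 genes (17 of cell types and pathways and 1 of sex-linked genes), of which 2 were not found, were chosen with earlier results of these data known. From each list and tissue up to 4 called genes with the lowest q-value could be named, or the 2 with the highest FPKM where none was called, and the genes Apoc1, Ccr2, Cd44, Cst7, Ddx3y, Elane, Hba-a1, Hba-a2, Il1b, Itgax, Klf1, Ly6c2, Lyve1, Mitf, Mpo, Ms4a4c, P2ry12, Spi1, Tmem119, Tnf and Vldlr were named outside this rule, after their values were seen. Transcript lengths, GC content and positions came from GENCODE M21, using the longest transcript of a gene, protein-coding where one exists, and the trend was removed as the median ratio in 10 by 10 cells of length and GC content. Alternatives were pseudocounts of 0.1 and 0.01 FPKM, rescaling of the FPKM of each group to one common sum, centring, removal of that trend, a q-value under 0.01, an added fold of 1.5, and adjustment over tested genes with at least 1 FPKM. Python 3.11.15, pandas 2.3.3, NumPy 2.4.6, Biopython 1.88 and matplotlib 3.10.9 were used, and the scripts were tested on simulated data.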

Additional observations from a re-analysis of the deposited data

How the results depend on the processing

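The 7 genes of the set called higher in cortex became 6 at a q-value under 0.01 in the authors' deposited table, where Msr1 was lost, and stayed at 7 under the other call rules. The median cortex ratio of 1.19 over the 8 tested genes of the set was 1.43 and 1.501 with pseudocounts of 0.1 and 0.01 FPKM, 1.05 after rescaling to one common sum and 0.91 without the length and GC trend. In subcortex the 1 called gene, Lyz2, was lost at a q-value under 0.01 (0 called). Over the lists without the sex-linked one, 141 genes were tested in cortex, and 37 were called higher and 18 lower. Among all tested genes 8.15% were called higher and 11.3% lower. The 37 became 24 at a q-value under 0.01 and 21 with a 1.5-fold minimum, against 4.01% and 3.35% of all tested genes. The 18 called lower became 6 with that minimum. The median of these lists was 0.22 in cortex and 0.0502 after rescaling, and 0.10 in subcortex and 0.20 after it. In subcortex 136 genes of these lists were tested, and 4 were called higher and 1 lower, against 0.451% and 0.262% of all tested genes. The 4 called higher became 0 at a q-value under 0.01, and the 1 called lower became 0 there and with the 1.5-fold minimum. The cause was not tested. No paired analysis was possible because the tables hold 1 value per group, which also kept leaving out a library and count-based fits from being run.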
